A study of Mus musculus with 2 samples.

Results

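A set of transcription factors acts in brown fat cells or marks them, and 10 of their genes were followed here: Prdm16, Ebf1, Ebf2, Ebf3, Zic1, Lhx8, Irf4, Cebpa, Cebpb and Cebpd. Members were chosen as probes whose gene name in the spot files was one of these 10, which gave 10 probes for 9 genes out of 41174 distinct probes on the array. Zic1 had 2 probes, the other 8 genes had 1 each, and no probe carried the name Prdm16. All 10 probes were well above background in both genotypes on both arrays, none was saturated, and none was marked as an outlier.

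In brown fat the factors form layers. EBF2 marks committed brown precursors and works with PPARG at brown-selective genes, while PRDM16 is a coregulator that binds C/EBP-beta and PPARG and holds down white fat and muscle genes. C/EBP-beta and C/EBP-delta act early in adipocyte differentiation, and C/EBP-alpha acts later and keeps the mature state. IRF4 acts with PGC-1-alpha on thermogenic genes, and Zic1 and Lhx8 are developmental patterning genes used as markers of classical brown fat.

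The study set RNA from interscapular brown fat of C57BL/6 wild-type mice (WT) against RNA from double-knockout mice on the same background (DKO), which are RORa-/- for the nuclear receptor gene Rora among their lost genes. The labels name 4 male mice of 2 to 3 months per genotype, taken near circadian time 20, and no tissue-specific driver. Each of 2 Agilent whole mouse genome arrays took up both RNAs, and DKO was in Cy5 on one and in Cy3 on the other. The sources used here do not say whether mice were pooled or whether the arrays share extracts, so the arrays count as 1 replicate per genotype and no test is given. In whole tissue, fewer cells of a type and less RNA per cell cannot be told apart. Ratios are on the log2 scale, DKO over WT, and each mean carries its SD over the arrays (n = 2), which reflects dye and measurement error rather than a known spread between animals.

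Probes were taken as measured if either genotype cleared background on both arrays, and 32424 did. Over these the 2 arrays did not correlate (Pearson r = −0.02 across probes, which are not independent replicates). Each member probe is therefore given its signals or ratios on both arrays. Rora and the list genes are given as a mean with its SD, and most list medians as the median of mean ratios only. The central 95% of mean ratios ran from −0.20 to 0.24. Rora itself was lower in DKO, at −0.38 ± 0.04 and −0.47 ± 0.10 on its 2 probes. These probes are dim, and the scanner software's ratios, which carry no added offset, were −0.96 ± 0.07 and −1.52 ± 0.14. Nothing at hand says whether either probe lies in the deleted part. All 12 of 12 markers of brown adipocytes and adipocytes were measured, with Cidea and Fabp4 saturated. Being measured cannot check the tissue label, since all 10 B lymphocyte markers and all 9 endothelial markers were measured as well.

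None of the 10 lineage factor probes was called, where a call needed a mean of at least 2-fold with each array the same way by at least 1.5-fold. By that rule 0.0987% of the measured probes were higher in DKO and 0.0216% were lower. With the mean lowered to 1.5-fold and each array the same way, 0.352% were higher and 0.259% lower, and again no member was among them. The member ratios ran from −0.05 to 0.53 with a median of 0.24, against 0.0026 for all measured probes. With DKO in Cy5 the member median was 0.17, and with DKO in Cy3 it was 0.14. Of the 10 probes, 6 lay above 0 on both arrays, none below 0 on both, and 4 had opposite signs, while 19.5% of all measured probes lay above 0 on both and 17.8% below. The 6 probes come from 5 genes, since both Zic1 probes were among them. The C/EBP genes and Zic1 supplied 5 of the 6, and the 3 EBF genes supplied none.

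**Figure D1:**
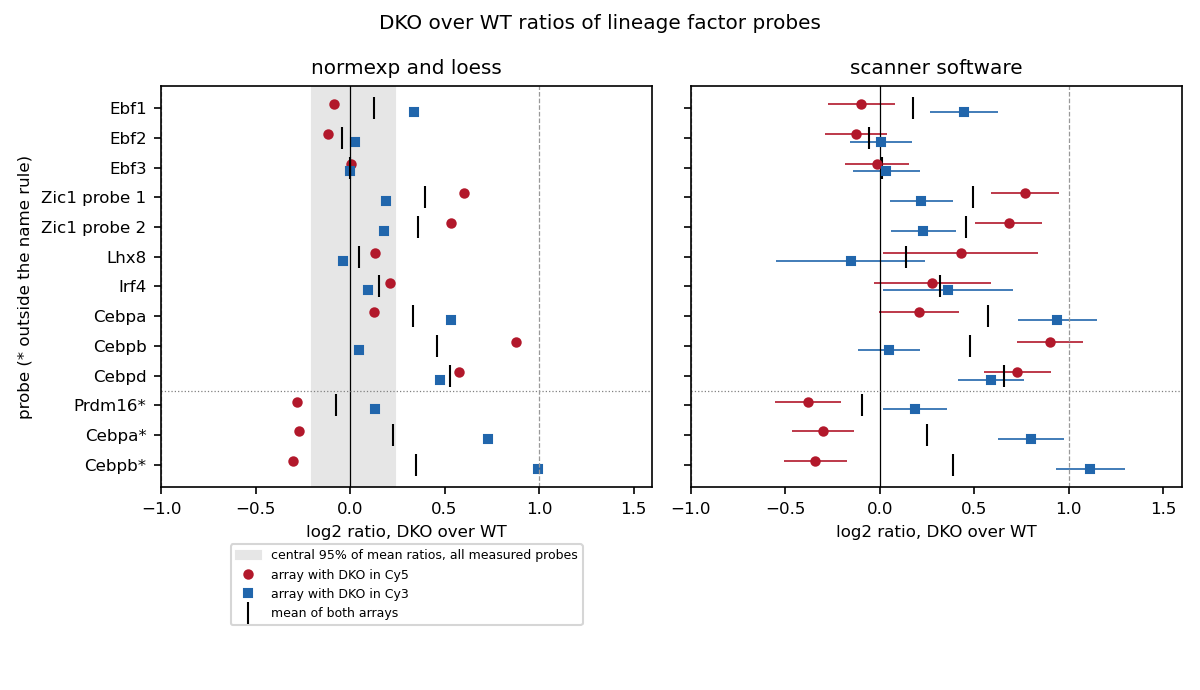
Log2 ratios of DKO over WT (x axis) for each lineage factor probe (y axis) on the array with DKO in Cy5 (circles) and with DKO in Cy3 (squares), after normexp and loess on the left and as given by the scanner software on the right, where bars are the software's own error of 1 ratio. Vertical ticks mark the mean of both arrays, the grey band is the central 95% of means over all measured probes (−0.20 to 0.24), dashed lines mark 2-fold, and the 3 probes under the dotted line lie outside the name rule; Cebpd has both arrays near 0.5, while the starred Cebpa and Cebpb probes have opposite signs.

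Cebpd, the C/EBP-delta gene, had the highest mean ratio of the members, and its SD was small beside the mean. Its processed signal, which is the scanner software's background-subtracted and dye-normalised brightness in arbitrary units, was 2142 in WT and 3548 in DKO on the array with DKO in Cy5. On the other array it was 2693 in WT and 4052 in DKO. Both DKO signals were thus above both WT signals, though these are 2 readings of what counts as 1 replicate per genotype. The share of all measured probes separated in this way was not counted. Such a separation, here and for the members below, therefore only describes the signals. The log2 ratios were 0.58 with DKO in Cy5 and 0.48 with DKO in Cy3, a mean of 0.53 ± 0.07 or 1.44-fold, at percentile 99.6 of all measured probes. The software's ratios, which carry no added offset, gave 0.66 ± 0.10 or 1.58-fold. Under the software's error model, Cebpd was the only member with a p-value under 0.01 in the same direction on both arrays, where 0.493% of measured probes passed that rule upwards and 0.423% downwards. That p-value covers measurement error on 1 array only, not the spread between mice.

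Cebpb, the C/EBP-beta gene and the PRDM16 partner among the C/EBP factors, had a higher mean in DKO that came mostly from 1 array. Its processed signal was 78856 in WT and 147328 in DKO with DKO in Cy5, and 135615 in WT and 140451 in DKO with DKO in Cy3. The DKO signals were above both WT signals, by a small margin on the second array. The ratios of 0.88 and 0.05 gave 0.46 ± 0.59, an SD larger than the mean. A further probe, listed under the cDNA AB012278 with the Cebpb RefSeq accession beside it, lay outside the name rule and was chosen after its values were seen. It ran the other way round, at −0.30 with DKO in Cy5 and 0.996 with DKO in Cy3, for 0.35 ± 0.92. The array with the high value on the named probe had the low value on the other, and the Cebpb difference did not exceed the spread between arrays on either probe.

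Cebpa, which encodes C/EBP-alpha, was higher in DKO on its named probe, mostly on the other array. Its processed signal went from 937 in WT to 1084 in DKO with DKO in Cy5 and from 869 to 1666 with DKO in Cy3, so both DKO values were above both WT values. The ratios were 0.13 and 0.54, a mean of 0.33 ± 0.29 or 1.26-fold. This probe is dim, with raw mean signals of 122 to 165 over local backgrounds of 56 to 73, and the software's ratios gave a larger 0.57 ± 0.52. A second Cebpa probe, described in the file as the Cebpa cDNA BC011118 and again outside the name rule, read −0.27 and 0.73, for 0.23 ± 0.71. Its signs differed between arrays, as for the second Cebpb probe.

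Zic1, a zinc finger gene of classical brown fat, was the only member with 2 probes under its own name, and these gave like values. The brighter probe, A_51_P194230, had a processed signal of 2383 in WT and 4061 in DKO with DKO in Cy5, and 3158 in WT and 3681 in DKO with DKO in Cy3. The other, A_52_P428654, had 1984 and 3185 on the first array and 2648 and 3108 on the second. Each DKO signal was above both WT signals on its probe. The brighter probe gave 0.60 and 0.19, a mean of 0.39 ± 0.29 or 1.31-fold, and the other gave 0.54 and 0.18, a mean of 0.36 ± 0.25 or 1.28-fold. Both probes sample the same hybridisations, so their likeness speaks to the probes and not to the mice. On both probes the higher ratio came from the array with DKO in Cy5.

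No EBF gene lay on the same side of 0 on both arrays. Ebf2, the brown precursor factor, had a processed signal of 7618 in WT and 6991 in DKO with DKO in Cy5, and 6903 in WT and 6933 in DKO with DKO in Cy3. Its ratios of −0.12 and 0.03 gave −0.05 ± 0.10, or 0.969-fold. Ebf3 read 3497 in WT and 3461 in DKO on the first array and 1954 and 2002 on the second, with a mean ratio of 0.0011 ± 0.0025. The 2 arrays thus differed in the Ebf3 signal of both genotypes far more than the genotypes differed on either array. Ebf1, which also drives B lymphocyte development, read 1917 in WT and 1793 in DKO with DKO in Cy5, and 1815 and 2471 with DKO in Cy3. The Ebf1 ratios of −0.09 and 0.34 gave 0.13 ± 0.30, so its direction was not settled. Under other settings the sign of Ebf2 turned in 1 of 6 and that of Ebf3 in 2 of 6, so neither has a direction here. The software ratios and the authors' value table, which hold nearly the same values, count as 2 of the 6.

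Irf4 and Lhx8 were the dimmest members. Irf4, the thermogenic partner of PGC-1-alpha, had raw mean signals of 86.3 to 110 over local backgrounds of 58 to 74. Its processed signal was 467 in WT and 566 in DKO with DKO in Cy5. On the other array it was 397 in WT and 509 in DKO. Both DKO values were above both WT values. The ratios of 0.21 and 0.09 gave 0.15 ± 0.08, while the software's ratios, without the added offset, gave 0.32 ± 0.06 with its own error on 1 array at 0.31 and 0.34. Lhx8, a LIM homeobox gene, read 308 in WT and 415 in DKO on the first array and 398 and 358 on the second. The Lhx8 signal was higher in DKO on the first array only, and its mean ratio was 0.05 ± 0.12.

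Prdm16 had no probe under its own name. The probe listed as the cDNA AK083829 carries a RefSeq accession of Prdm16 in the file and was likewise chosen after the files were seen. It read 2790 in WT and 2149 in DKO with DKO in Cy5, and 2707 in WT and 3084 in DKO with DKO in Cy3. The ratios of −0.28 and 0.13 gave −0.08 ± 0.29, so the signs differed between arrays and the mean lay inside the central range of all probes.

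**Figure D2:**
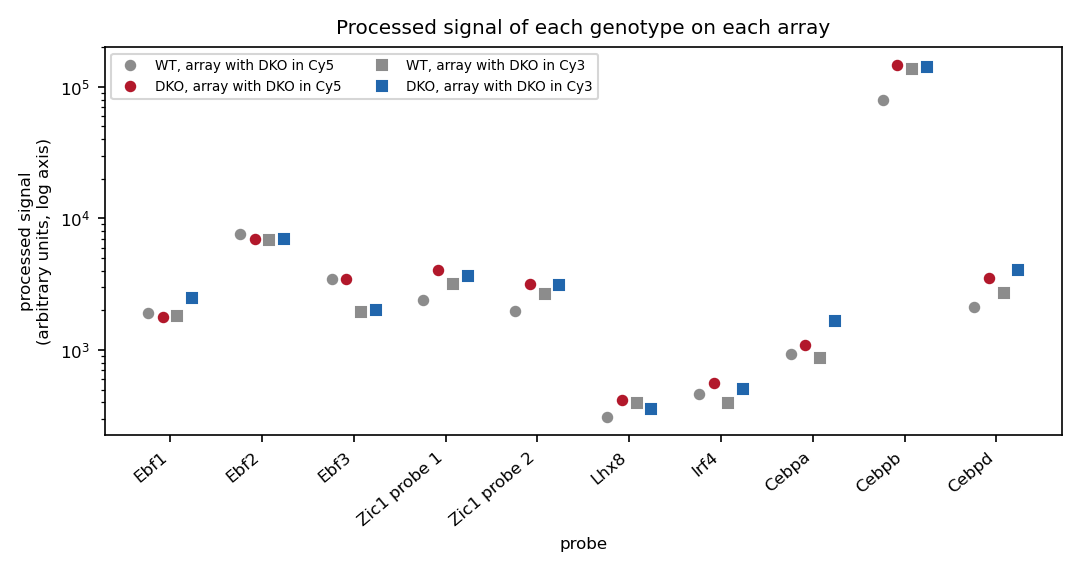
Processed signal of the scanner software (y axis, arbitrary units, log axis) for each lineage factor probe under its own name (x axis), with WT in grey and DKO in colour, circles for the array with DKO in Cy5 and squares for the array with DKO in Cy3. Levels can be compared within a probe only. The DKO points of Cebpd, Cebpb, Cebpa, both Zic1 probes and Irf4 lie above both WT points of the same probe. Those of the EBF probes and Lhx8 do not, and the share of all measured probes with this separation was not counted.

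Across all probes tied to a gene, inside or outside the name rule, 3 genes lay above 0 on both arrays on every probe: Cebpd, Zic1 and Irf4. Cebpd and Irf4 had 1 probe each, so for them the condition was that of a single probe, which 19.5% of measured probes met. The software's ratios for Irf4 were 0.28 and 0.36, with errors of 0.31 and 0.34. Cebpa and Cebpb lay above 0 on both arrays on the named probe alone, and their further probes were chosen after the files were seen. No p-value can be attached to these counts with 1 replicate per genotype. On single arrays the error model was passed more widely, with 4 of the 10 probes higher for DKO in Cy5 (1.34% of measured probes) and 2 higher for DKO in Cy3 (4.07%). None was lower on either, against 3.18% and 1.02% of measured probes. The 4 were Cebpb, Cebpd and both Zic1 probes, and the 2 were Cebpa and Cebpd.

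**Figure D3:**
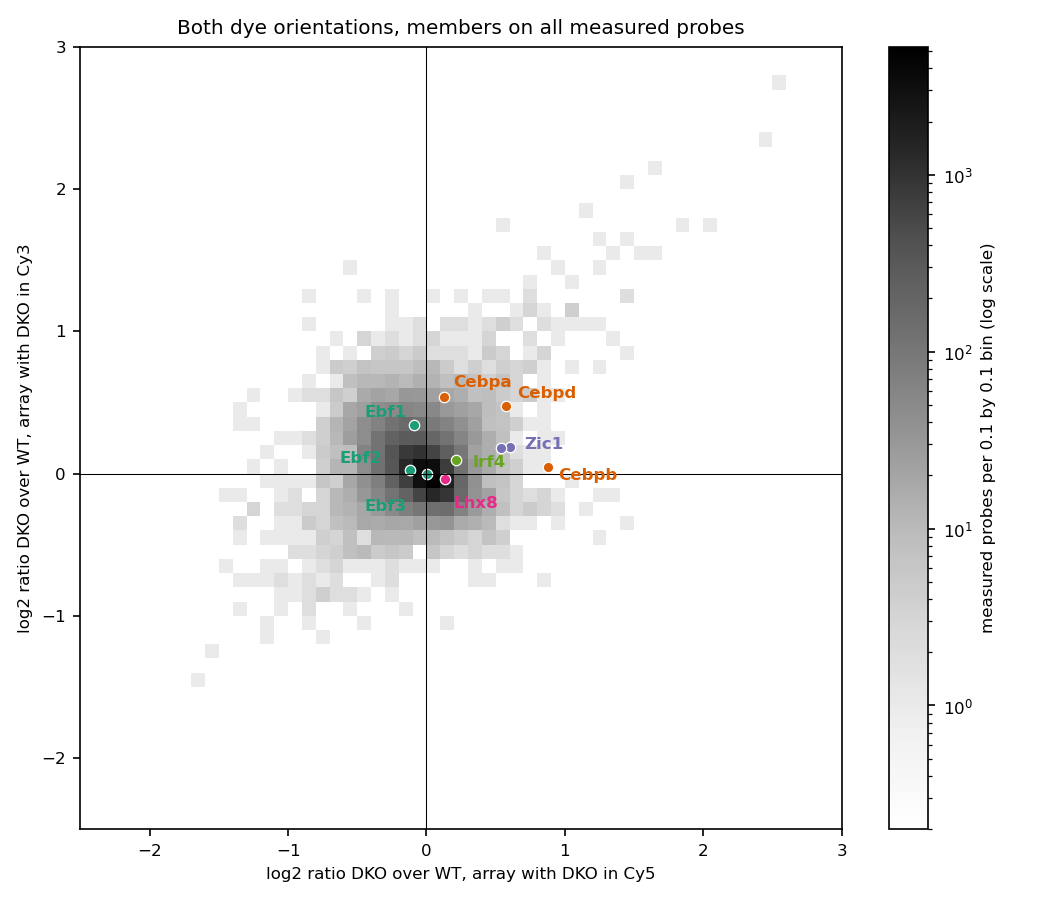
Log2 ratio of DKO over WT on the array with DKO in Cy5 (x axis) against the array with DKO in Cy3 (y axis), with the 32424 measured probes as grey bins shaded by count on a log scale and the 10 lineage factor probes as coloured points. Cebpd lies high on both axes at 0.58 and 0.48, Cebpb lies high on the first only and Ebf1 high on the second only, and Ebf3 lies at the origin.

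Promoter sequence is shown for the members that lay above 0 on both arrays and had a window, so that the letters next to their start sites can be read. RefSeq windows of assembly GRCm38.p6 were at hand for 8 of the 10 genes, 9 windows in all with 2 for Ebf1, and not for Ebf2 and Cebpd. The 250 bases before the start site are printed 5′ to 3′ on the gene's strand for Zic1 (chr9:91365769-91366018, minus strand), Irf4 (chr13:30748983-30749232, plus strand), Cebpa (chr7:35119043-35119292, plus strand) and Cebpb (chr2:167688665-167688914, plus strand). Capitals mark every match to the motifs named after the sequences.
Zic1: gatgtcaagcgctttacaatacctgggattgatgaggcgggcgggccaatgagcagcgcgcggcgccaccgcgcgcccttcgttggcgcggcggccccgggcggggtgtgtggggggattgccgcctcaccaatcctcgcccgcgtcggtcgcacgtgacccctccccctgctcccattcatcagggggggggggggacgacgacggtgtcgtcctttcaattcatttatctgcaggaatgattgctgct
Irf4: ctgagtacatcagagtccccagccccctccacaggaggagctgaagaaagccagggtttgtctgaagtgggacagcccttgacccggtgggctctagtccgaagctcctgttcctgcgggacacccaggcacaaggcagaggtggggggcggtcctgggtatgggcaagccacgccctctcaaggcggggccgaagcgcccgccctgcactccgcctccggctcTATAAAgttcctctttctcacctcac
Cebpa: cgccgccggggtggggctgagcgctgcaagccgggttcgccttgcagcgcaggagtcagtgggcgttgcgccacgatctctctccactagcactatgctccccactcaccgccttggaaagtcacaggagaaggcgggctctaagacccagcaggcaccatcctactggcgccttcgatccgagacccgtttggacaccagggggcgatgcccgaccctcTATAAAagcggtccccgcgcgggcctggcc
Cebpb: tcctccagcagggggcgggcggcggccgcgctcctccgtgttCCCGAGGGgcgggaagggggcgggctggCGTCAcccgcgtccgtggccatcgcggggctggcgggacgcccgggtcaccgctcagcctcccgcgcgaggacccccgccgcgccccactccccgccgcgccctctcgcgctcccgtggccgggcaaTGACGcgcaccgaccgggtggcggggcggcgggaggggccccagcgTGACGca

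The motifs were searched on both strands. For the ROR response element they were TAGGTCA and TGGGTCA, for C/EBP TTGCNNAA, for the EBF core CCCNNGGG, which reads the same on both strands, for the cAMP response element core TGACG, and for the TATA box TATAAA. No matches overlapped in the windows shown. The Cebpb window held 3 cAMP response element cores, at −180 to −176, −53 to −49 and −7 to −3 from the start site, and 1 EBF core at −208 to −201. Among all 32851 windows of this length, 17.8% held the cAMP response element core and 11.8% the EBF core. Ebf3 was the other member with both. The Cebpa window held a TATA box at −30 to −25, as did Irf4 at −26 to −21, against 12.4% of all windows. Zic1 held none of the motifs. Neither ROR motif was in any of the 9 member windows, where 2.23% and 3.24% of all windows held them, and the C/EBP motif, found in 9.56%, was in none either. These matches describe letters in a short window and not sites in use. The Cebpb window had 81.6% G and C with 41 CpG sites, against medians of 52.4% and 6 over all windows.

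The partners and targets of these factors were then counted, each gene by its brightest measured probe. Of 14068 measured genes with a symbol, 0.171% were called higher in DKO and 0.0498% lower. On both arrays 19.16% of these genes lay above 0 and 19.23% below, the shares to set beside the list counts. Among 24 measured of 25 other regulators of brown fat, none was called. The list median was −0.0021, with 6 genes above 0 on both arrays and 4 below. The brightest were Pparg, the master regulator of fat cells that EBF2 and PRDM16 work with, at −0.02 ± 0.0033, and the nuclear receptor gene Esrra at 0.15 ± 0.56. Ppara (0.61 ± 0.04) and Ppargc1a, the PGC-1-alpha gene (0.54 ± 0.04), had the highest means of that list and were singled out after their values were seen. Ppara passed 1.5-fold, as 0.562% of genes did upwards, and Ppargc1a did not.

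Genes selective for brown over white fat cells included several that were higher in DKO. Of 15 measured of 16, Dio2, which converts thyroid hormone to its active form (1.89 ± 0.32), Fbxo31 (1.82 ± 0.04) and Elovl3, a fatty acid elongase (1.02 ± 0.02), were called higher, and none lower. The median of the 14 that were not saturated was 0.30. Ucp1, the uncoupling protein and a common target of EBF2, PRDM16 and IRF4, read 0.73 ± 0.0047, or 1.66-fold, and was not called. Among 11 measured of 14 genes selective for white fat cells, which PRDM16 is known to hold down, only Lep was called, at −1.08 ± 0.42, and the median was −0.03. Nnmt, of the same list, read 0.94 ± 0.27 in the opposite direction and was not called. All 16 adipocyte genes taken as C/EBP targets were measured, and Pck1, a glyceroneogenic enzyme, was called higher at 1.59 ± 0.06. The median of the 14 without saturation was 0.02, at −0.13 for DKO in Cy5 and 0.22 for DKO in Cy3. A list's members were not tested against other genes.

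Relatives of the members in the PRDM, EBF, ZIC, LHX, IRF and C/EBP families served as a comparison. Of 30 such genes 24 were measured, none was called, 6 lay above 0 on each array and 6 below, and the ratios ran from −0.18 to 0.29 with a median of −0.0077. The brightest was Lhx1 at −0.09 ± 0.16. The highest of them were the C/EBP relatives Cebpz (0.29 ± 0.05) and Cebpg (0.26 ± 0.14), which were named after their values were seen. On the probes under their own names, Cebpd, Cebpb, Zic1 and Cebpa had means above those of every measured relative. The relatives, however, were each taken by their brightest probe. The brighter Cebpa probe, outside the name rule, read 0.23 ± 0.71, below Cebpz and Cebpg. Whether the members differ from their relatives was not tested.

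**Figure D4:**
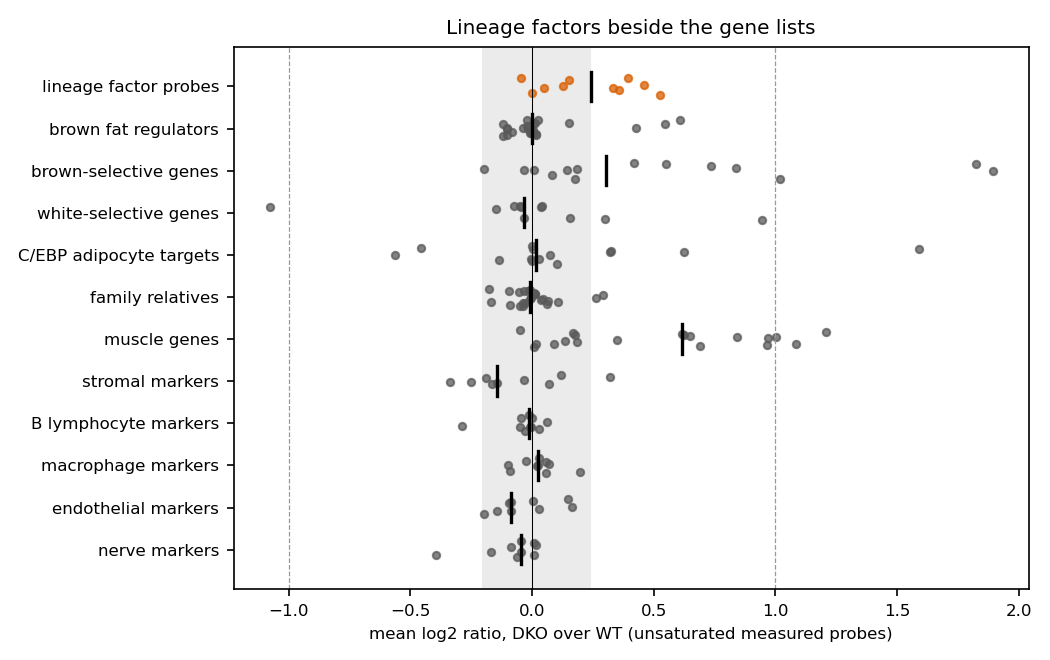
Mean log2 ratio of DKO over WT (x axis) of the 10 lineage factor probes (orange) and of the measured, unsaturated genes of 11 lists (grey), 1 row per list, with the median as a vertical bar, the central 95% of all measured probes as a grey band and dashed lines at 2-fold. The lineage factor probes have a median of 0.24, above the brown fat regulators (−0.0021) and the family relatives (−0.0077). It is below the brown-selective genes (0.30) and the muscle genes (0.61). The units differ: each list gene is shown by its brightest probe, whereas the lineage factors are shown by every named probe. Both Zic1 probes are therefore counted, and Cebpa is shown by the dimmer of its probes.

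Genes of other cell types in the tissue were read beside the factors. EBF1 and IRF4 also act in B lymphocytes, and none of the 10 measured B lymphocyte markers was called, with a median of −0.01 and the brightest, Cr2 and Vpreb3, at −0.01 ± 0.15 and −0.04 ± 0.10. Stromal and precursor markers, the cells in which EBF2 is found first, had a median of −0.14 over 9 of 10 measured, with the brightest, Dcn, at −0.04 ± 0.05 and Col1a1 at −0.14 ± 0.20. Medians were 0.03 for 10 of 10 macrophage markers (Lyz2 0.20 ± 0.10, Csf1r 0.02 ± 0.15), −0.09 for 9 of 9 endothelial markers (Flt1 0.16 ± 0.43, Kdr −0.20 ± 0.02) and −0.04 for 9 of 10 nerve markers (Pmp22 −0.17 ± 0.11, Gfra3 0.02 ± 0.18). None of these genes was called. Skeletal muscle genes, which PRDM16 and EBF2 are known to oppose, had the highest list median, 0.61, at 0.19 for DKO in Cy5 and 0.78 for DKO in Cy3. Of 22 genes 19 were measured, 3 were called higher, and 12 were above 0 on both arrays with 1 below. The called genes were Eno3 (1.21 ± 0.33), Myom2 (1.08 ± 0.07) and Mb (1.004 ± 0.39). The summed processed signal of the muscle list was 204520 and 208083 in WT and 298491 and 376728 in DKO. Myog, Myf5 and Myh4 had no measured probe assigned to them. Of the measured muscle regulator genes on the list, Myod1 read −0.05 ± 0.04 and Myf6 0.17 ± 0.03. Pax3 read 0.02 ± 0.10 and Pax7 0.01 ± 0.13. The part of muscle tissue in the ratios of the lineage factors and brown-selective genes was not tested.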

How the data were processed

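RNA of both genotypes was measured on 2 two-colour arrays with reversed dyes. Per the submitters' processing notes, the authors extracted spots with Agilent Feature Extraction 7.5 at default settings. The deposited spot files hold spot and background intensity, linear and not normalised, together with processed intensity. Per the file headers, the deposited log10 ratio (red over green, dye-normalised), its error (an unbounded score in the file) and its p-value come from the software's error model. The authors' value table, also deposited, gives log2 ratios that matched the scanner's red over green within 0.001 for 40962 of 41001 and 41101 of 41141 values, both with a median of 0. The series design text names Rosetta Resolver for later processing, without its steps.

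Mean signals were corrected with normexp (offset 50, which shrinks ratios of dim probes), then loess-normalised within arrays, control spots having weight 0 (limma 3.58.1, R 4.3.3). The sign was turned where DKO was in Cy3. Outlier spots were left out (171 and 29), spots of a probe averaged, and both arrays averaged. Well above background means 2.6 background SDs, per the file headers. On the arrays, 77.6% to 85.4% of probe spots passed it per genotype, and the number of arrays limits the precision. Of 40979 probes, 20702 were named through RefSeq accessions or symbols of GRCm38.p6; those whose own name was another gene stayed unnamed. All members were named with every probe, and from each list every called gene or else the 2 brightest. The members and the 12 lists were chosen with earlier results of these data known. The call rule was tested on simulated data that had the same noise level for every probe, the median SD of all measured probes (0.0855). The member probes had a larger median SD, 0.186. A second targeted gene and a gene that the rule would name from the family list are not reported here. Alternatives covered the offset, software ratios, median signals, centring, loess on detected probes, the value table, dim filters, size rules and single arrays. The remaining steps used Python 3.11.15 (pandas 2.3.3, numpy 2.4.6; plots by matplotlib 3.10.9).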

Additional observations from a re-analysis of the deposited data

How the results depend on the processing

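No member probe was called higher or lower with median centring, the value table, offset 16, loess on detected probes, median signals, software ratios, the 1.5-fold mean or 1 array alone. The error model rule passed 1, Cebpd, higher in DKO. The median of the member probes was 0.24 as reported, 0.28 with median centring, 0.33 with offset 16 and 0.39 with software ratios or the value table. It ranged from 0.14 to 0.17 with 1 array alone. The offset shrinks the ratios of dim probes, which bears on offset 16, software ratios and the value table. With median centring the median of all measured probes also rose, to 0.0412 from 0.0026 as reported. For median centring the cause was not tested. Different probes were high on each array: with DKO in Cy5 and then in Cy3, Cebpb read 0.88 and 0.05, and Cebpa 0.13 and 0.54. The median of mean ratios therefore need not lie between the medians of the single arrays, and here it is above both. The reported setting and 6 others keep both arrays, and of the 6, software ratios and the value table gave nearly the same values. Over these settings Cebpd ran from 0.52 to 0.66. Zic1 ran from 0.39 to 0.50 and from 0.36 to 0.46 on its probes. Cebpa ran from 0.33 to 0.57, Cebpb from 0.46 to 0.61 and Irf4 from 0.14 to 0.32, while Ebf2 ran from −0.06 to 0.08 and Ebf3 from −0.03 to 0.13. No paired analysis was possible because each genotype has 1 replicate. Dim signal limits Lhx8 and Irf4 most, with software errors of 0.31 to 0.41 on 1 ratio.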
